A study of Mus musculus with 21 samples.

Results

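The count table has lines for 10 genes that are described here: Mobp, Mog, Opalin, Olig1, Olig2, Nkx6-2, Enpp6, Bfsp2, Tmeff2 and Adamts4. They are genes of the oligodendrocyte lineage or genes with high transcript levels in it, and they were chosen by symbol because several of them had higher counts in basal than in apical libraries. The table holds 21878 lines, of which 14968 had enough counts to be tested, and all 10 genes were among those tested. Because levels in base and apex chose the genes, the differences between base and apex are given below as a description with no test.

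The series profiled spiral ganglion neurons, the neurons that carry signals from cochlear hair cells to the brainstem, taken from mice at postnatal day 7. About 50 neurons were drawn into a micropipette for each library, and polyadenylated RNA was amplified by Smart-seq2, a method that copies full-length transcripts. Adeno-associated virus (AAV) carried EGFP alone in the control group, whose genotype is labelled WT, a site-mutated HCN2 channel (DN-HCN2) labelled as having a dominant-negative effect, or a truncated SK3 channel labelled in the same way. HCN2 is a hyperpolarisation-activated cation channel and SK3 a calcium-activated potassium channel. Libraries came from the apex (low-frequency end) or the base (high-frequency end) of the cochlea, with 4 control apex, 4 control base, 4 DN-HCN2 apex, 3 DN-HCN2 base, 3 truncated SK3 apex and 3 truncated SK3 base libraries. Strain, promoter of the virus and the animals behind each library are not given in the sources used here, so p-values measure only the spread between these libraries, which may be technical.

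Oligodendrocytes make the myelin of the brain, spinal cord and optic nerve, whereas Schwann cells make the myelin of peripheral nerves. In the auditory nerve, Schwann cells ensheath the peripheral part and oligodendrocytes the part close to the brainstem. Some myelin genes, such as Mbp, are used by both cell types, whereas Mog, Mobp and Opalin are known as genes of central myelin.

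Library totals ran from 10411634 to 15138780 counts. Levels below are CPM, counts scaled to a common library total after TMM correction (a factor for library composition), as mean ± SD where a group is summarised. Summed transcripts of the spiral ganglion neuron markers lay between 16280 and 31518 CPM in every library, with Calb2, Nefl and Snap25 the most abundant of them. Markers of the cell type on the labels were therefore abundant in all 21 libraries. The sum does not measure how pure a library was, and Schwann cell genes summed to between 5496 and 15482 CPM in the same libraries.

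The summed level of the 10 genes was above the apical range in every basal library, by amounts that differed widely. Their summed level stood at 1744, 1252 and 914 CPM in control base replicates 1, 3 and 4 and at 4013 CPM in truncated SK3 base replicate 1. In the other 6 basal libraries the sum was 18.4 CPM in control base replicate 2, 11.1, 20.7 and 26.2 CPM in DN-HCN2 base replicates 1 to 3, and 50.1 and 101 CPM in truncated SK3 base replicates 2 and 3. The 11 apical libraries lay between 1.68 and 9.76 CPM, with a median of 6.60 CPM. The margin over the apex was small for DN-HCN2 and large in 4 libraries. The genes made up 0.378% of all counts in truncated SK3 base replicate 1, and 0.170%, 0.127% and 0.0915% in control base replicates 1, 3 and 4. All 10 genes had a count in those 4 libraries, whereas control base replicate 2 held counts of 6 of them. Because these are pooled samples, more cells of a type and more RNA per cell cannot be told apart.

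**Figure D1:**
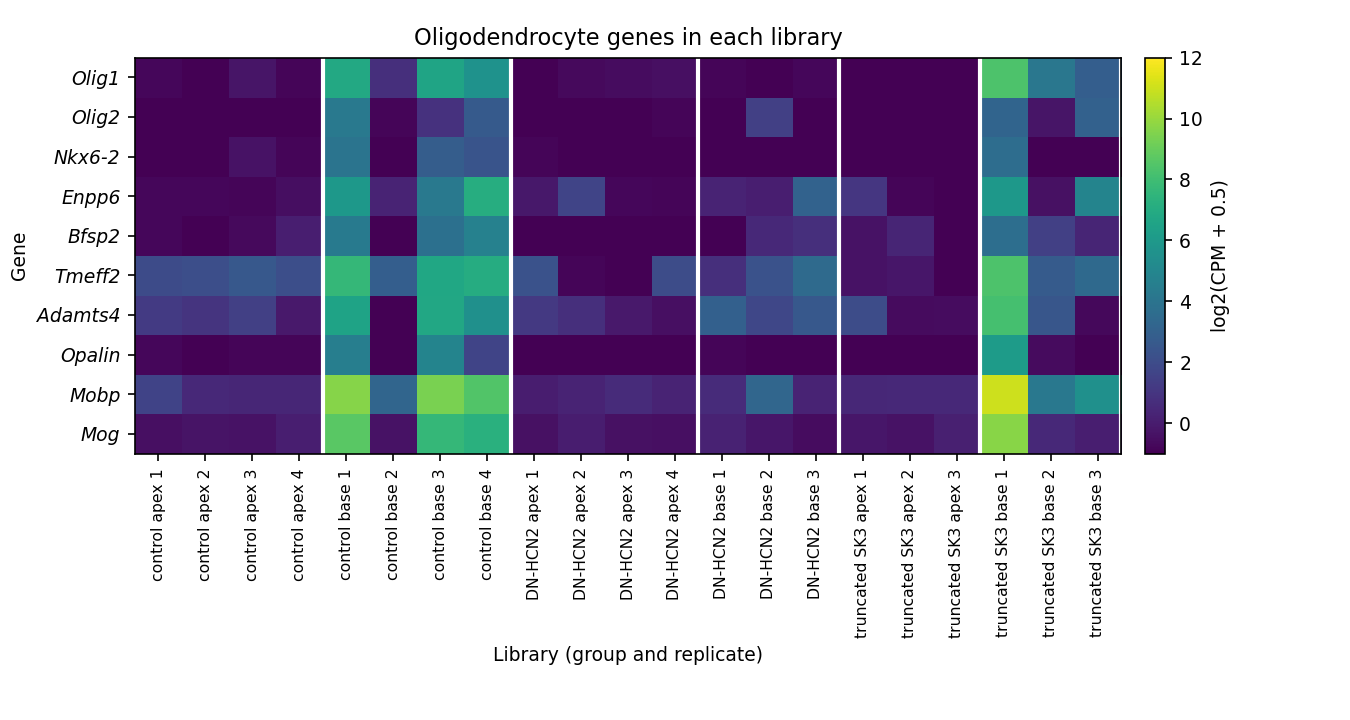
Levels of the 10 oligodendrocyte genes (rows) in the 21 libraries (columns, ordered by group), as log2(CPM + 0.5) on the colour scale. Control base replicates 1, 3 and 4 and truncated SK3 base replicate 1 stand out in every row except that of Olig2 in control base replicate 3, and truncated SK3 base replicate 3 is raised in the rows of Mobp, Enpp6, Olig1 and Olig2.

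Mobp, Mog and Opalin encode proteins of the finished central myelin sheath. Their promoters are printed here because these genes are known for central myelin. Each sequence is the stretch of 250 bases before the RefSeq transcription start on GRCm38.p6, read 5′ to 3′ on the gene's own strand: chr9:120149492-120149741 on the plus strand for Mobp, chr17:37023399-37023648 on the minus strand for Mog and chr19:41077114-41077363 on the minus strand for Opalin. Capitals mark matches to ACAAAG or its reverse complement CTTTGT (a core bound by SOX factors, of which Sox10 acts in both oligodendrocytes and Schwann cells) and to CTGGCAC or CTGGTAC or their reverse complements (bound by MYRF, a regulator of central myelin genes).
Mobp: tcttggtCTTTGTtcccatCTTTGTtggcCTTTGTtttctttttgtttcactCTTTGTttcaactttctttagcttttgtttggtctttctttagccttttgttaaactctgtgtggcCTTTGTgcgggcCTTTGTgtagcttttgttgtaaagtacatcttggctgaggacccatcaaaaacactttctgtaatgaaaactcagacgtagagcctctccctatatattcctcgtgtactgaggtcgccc
Mog: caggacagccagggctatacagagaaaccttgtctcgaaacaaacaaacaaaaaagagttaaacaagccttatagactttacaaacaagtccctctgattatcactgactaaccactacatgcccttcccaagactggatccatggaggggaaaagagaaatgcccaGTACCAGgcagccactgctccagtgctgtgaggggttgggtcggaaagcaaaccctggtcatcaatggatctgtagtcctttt
Opalin: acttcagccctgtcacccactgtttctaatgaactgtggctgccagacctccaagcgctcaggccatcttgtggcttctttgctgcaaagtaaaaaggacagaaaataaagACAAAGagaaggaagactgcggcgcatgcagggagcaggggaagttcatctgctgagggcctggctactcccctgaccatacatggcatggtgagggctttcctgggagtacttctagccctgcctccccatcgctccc
The Mobp window held 6 copies of CTTTGT, the Opalin window 1 copy of ACAAAG and the Mog window 1 match to the MYRF motif. A match is a description of the letters and not a binding site. Of 32851 mouse promoter windows of this length, 16.5% held the SOX motif and 5.93% the MYRF motif on either strand. Of the 8 member promoters in the RefSeq table, 2 held the SOX motif and 1 the MYRF motif. The E-box CAGCTG, a core read by basic helix-loop-helix factors and found in 13% of windows, stood in 0 of 8. The TATA sequence TATAAA, present in 12.4% of windows, stood in the Olig2 window only.

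Mobp (chr9:120149707-120181484, plus strand, GRCm38) encodes a basic protein of compact central myelin. Its level was 786, 9.12, 671 and 359 CPM in control base replicates 1 to 4 and 2066, 17.8 and 45.5 CPM in truncated SK3 base replicates 1 to 3. The DN-HCN2 base libraries had 1.00, 9.36 and 0.734 CPM, and the 11 apical libraries 0.523 to 2.55 CPM. All control and truncated SK3 basal libraries were above all apical ones, while 2 of the 3 DN-HCN2 basal libraries lay inside the apical range. Within a condition, every basal library was above every apical one for 2.64% of all tested genes in control and 6.27% under truncated SK3. The share over pooled conditions was not counted. The mean of the control base group (456 ± 348 CPM, SD, n = 4) was 356 times the control apex mean, with a 95% interval of 281 to 457. This interval, like all those on ratios of group means here, takes the higher group as exact and covers the counting error of the lower group. It is too narrow where the higher group also held few counts. Intervals on ratios and on proportions cover no more than counting error, since PCR reads without molecular identifiers are not independent molecules.

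Mog (chr17:37010743-37023398, minus strand) encodes myelin oligodendrocyte glycoprotein, a surface protein of the outermost layer of central myelin and a late marker of maturation. Control base replicates 1 to 4 had 410, 0.283, 199 and 151 CPM, and truncated SK3 base replicates 1 to 3 had 830, 0.888 and 0.580 CPM. DN-HCN2 base libraries had 0.6695, 0.371 and 0.184 CPM, within or below the apical range of 0.224 to 0.589 CPM apart from the first. Mog was thus high in 4 libraries and at most 0.888 CPM in the other 17, truncated SK3 base replicate 3 included. Opalin (chr19:41061710-41077113, minus strand), a transmembrane glycoprotein of the inner loops of central myelin, had 23.2, 0, 28.6 and 2.67 CPM in control base and 70.6, 0.162 and 0 CPM in truncated SK3 base. It was listed at 0 in 8 of 11 apical libraries and had 1 count in each of the other 3. In DN-HCN2 base, 1 count was found in replicate 1 and none in replicates 2 and 3.

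Of the transcription factors of the lineage, Olig1 and Nkx6-2 were highest in the same 4 libraries as Mobp and Olig2 was not. Olig1 (chr16:91269772-91271933, plus strand), a basic helix-loop-helix factor of oligodendrocyte maturation, had 115, 1.20, 95.7 and 48.3 CPM in control base replicates 1 to 4. It had 334, 17.3 and 6.87 CPM in truncated SK3 base and 0.0670, 0 and 0.0917 CPM in DN-HCN2 base, the last group resting on 2 counts in all. Control apex replicates held 7 counts together, DN-HCN2 apex 7 counts and truncated SK3 apex 0, and the highest apical level was 0.339 CPM. Every control and truncated SK3 basal library was therefore above every apical and every DN-HCN2 basal library. The share of all tested genes in this pooled order was not counted, and the order between base and apex is part of how the genes were chosen.

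Olig2 (chr16:91225457-91228677, plus strand), the partner factor needed for specification of the lineage, was lower and distributed differently. Its levels were 18.8, 0.0707, 1.29 and 5.98 CPM in control base, 8.77, 0.323 and 7.835 CPM in truncated SK3 base, and 0, 2.22 and 0 CPM in DN-HCN2 base. Control base replicate 3, rich in Mobp, had less Olig2 than DN-HCN2 base replicate 2 or truncated SK3 base replicate 3. A single apical count was found, in DN-HCN2 apex replicate 4, and 10 of 11 apical libraries were at 0. Nkx6-2 (chr7:139579376-139582797, minus strand), a homeobox factor of the same lineage, had 15.25, 0, 6.51 and 4.71 CPM in control base and 11.8, 0 and 0 CPM in truncated SK3 base. DN-HCN2 base was at 0 in all 3 libraries and the highest apical level was 0.271 CPM. Of the Nkx6-2 exon bases, 12.9% overlap Inpp5a on the other strand, and for Olig1 7.26% overlap Gm15966; the strand setting of the counting is not given in the sources used here, so reads there cannot be assigned.

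Enpp6 (chr8:46986887-47096762, plus strand), a choline-specific phosphodiesterase known as a marker of newly forming oligodendrocytes, had its highest level in a different library from the myelin genes. It reached 138.5 CPM in control base replicate 4, against 60.9, 0.707 and 18.3 CPM in replicates 1 to 3, 59.55, 0.242 and 28.8 CPM in truncated SK3 base, and 0.736, 0.556 and 7.98 CPM in DN-HCN2 base. Apical libraries ran from 0 to 2.65 CPM. Truncated SK3 base replicate 3 thus had more Enpp6 than control base replicate 3 while its Mog was near the apical level.

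Bfsp2 (chr9:103424924-103480420, minus strand), which encodes an intermediate filament protein best known from the lens, had 19.6, 0, 13.6 and 25.5 CPM in control base. Truncated SK3 base had 12.4, 2.26 and 0.774 CPM, DN-HCN2 base 0, 0.927 and 1.19 CPM, and the apex at most 0.790 CPM. The same 4 libraries led, with control base replicate 4 the highest; 11.8% of the exon bases of Bfsp2 overlap an antisense transcript, 5830418P13Rik. Tmeff2 (chr1:50900647-51187270, plus strand), a transmembrane protein with follistatin-like and EGF-like domains, had 204, 7.00, 107.5 and 133 CPM in control base, 336, 6.135 and 10.45 CPM in truncated SK3 base and 1.21, 4.36 and 10.6 CPM in DN-HCN2 base. In control apex it had 3.48, 3.86, 5.56 and 3.82 CPM, and in DN-HCN2 apex 4.31, 0.0680, 0 and 3.585 CPM. The truncated SK3 apex libraries were below those of control, at 0.264, 0.359 and 0 CPM.

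Adamts4 (chr1:171250421-171260637, plus strand), a secreted protease that cleaves proteoglycans such as aggrecan, had 92.0, 0, 111 and 45.45 CPM in control base and 285, 5.005 and 0.0967 CPM in truncated SK3 base. DN-HCN2 base had 7.30, 2.87 and 5.41 CPM and the apex 0.144 to 3.61 CPM. Adamts4 was the only one of the 10 genes for which every DN-HCN2 basal library was above every DN-HCN2 apical library.

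Relative to Mobp, some members kept nearly constant proportions in the 4 rich libraries and others did not. For every 100 Mobp counts, Olig1 gave 14.6 in control base replicate 1, 14.3 in replicate 3, 13.4 in replicate 4 and 16.2 in truncated SK3 base replicate 1. Adamts4 gave 11.7, 16.6, 12.7 and 13.8 in the same order. Mog ranged from 29.6 to 52.1 and Tmeff2 from 16.0 to 37.0. Of these 4 genes, Olig1 varied least and Tmeff2 most.

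Enpp6 and Opalin went opposite ways in control base replicate 4. Per 100 Mobp counts, Enpp6 gave 38.6 there (exact 95% interval 36.6 to 40.6), against 7.75 (7.17 to 8.38) in control base replicate 1, 2.73 (2.41 to 3.08) in replicate 3 and 2.88 (2.65 to 3.13) in truncated SK3 base replicate 1. Opalin gave 0.744 there (0.526 to 1.02), against 2.95 (2.60 to 3.33), 4.27 (3.86 to 4.71) and 3.42 (3.16 to 3.68). The intervals of counting error of that library did not overlap those of the other 3 for either gene. Mog, also a gene of mature myelin, did not follow Opalin, since it gave 42.0 in control base replicate 4 against 52.1, 29.6 and 40.2. Bfsp2 was also highest there, at 7.09 against 2.50, 2.03 and 0.602. Olig2 followed another order, from 0.192 (0.116 to 0.300) in control base replicate 3 to 2.40 (2.08 to 2.74) in control base replicate 1. Nkx6-2 ran from 0.573 to 1.94. With 1 library behind each value there is no replicate check of these proportions.

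**Figure D2:**
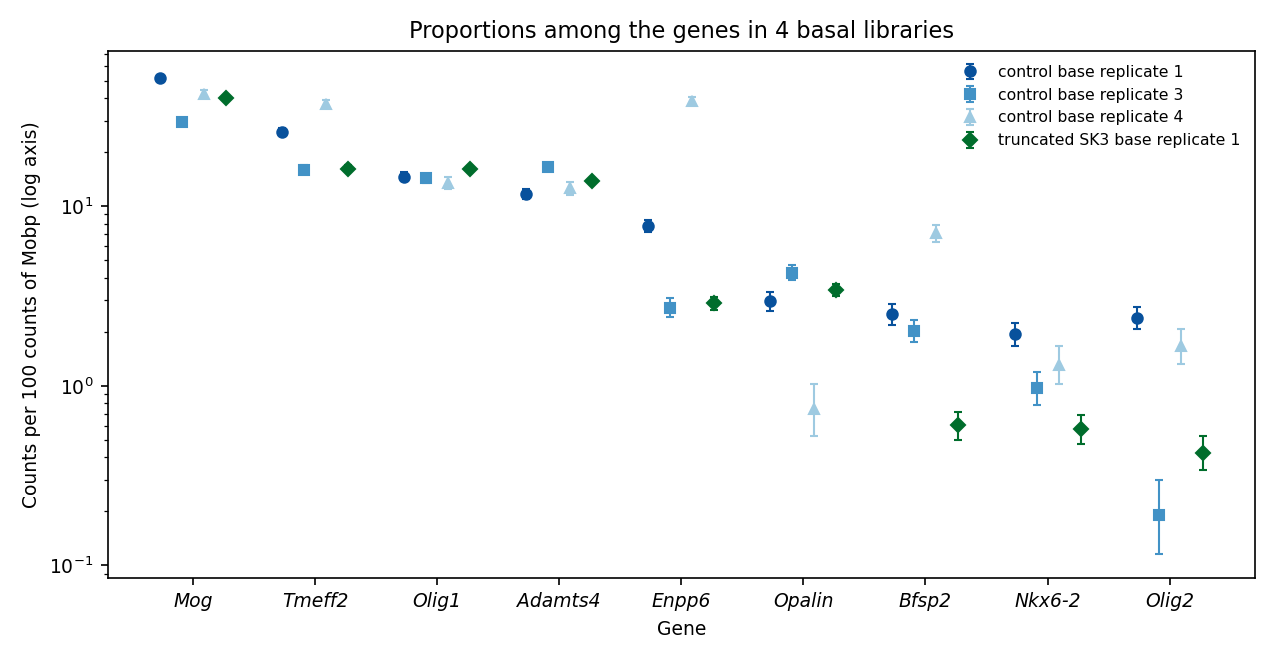
Counts of the other 9 genes per 100 Mobp counts (log axis) in control base replicates 1, 3 and 4 and truncated SK3 base replicate 1, with exact 95% intervals for counting error. Enpp6 is highest and Opalin lowest in control base replicate 4, while Olig1 lies between 13.4 and 16.2 in all 4 libraries.

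Levels of different genes were compared per kilobase of exon. In each of the 4 rich libraries Mog ranked highest, followed by Mobp and then Olig1: 240, 115 and 53.0 CPM per kilobase in control base replicate 1, and 487, 302 and 154 in truncated SK3 base replicate 1. The corresponding CPM per kilobase were 117, 97.9 and 44.3 in control base replicate 3 and 88.6, 52.4 and 22.3 in control base replicate 4. Olig2 stood far lower on that scale, at 7.44, 0.510 and 2.36 CPM per kilobase in control base replicates 1, 3 and 4 and 3.47 in truncated SK3 base replicate 1. The order was different in truncated SK3 base replicate 3, where Mobp had 6.64 CPM per kilobase, Enpp6 4.50, Olig1 3.18 and Olig2 3.10, while Mog had 0.341. In truncated SK3 base replicate 2, Olig1 ranked first at 7.99 CPM per kilobase.

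Between base and apex, the genes whose libraries did not overlap were counted with no test. In control, every basal library was above every apical library for 5 of 10 genes (Mobp, Olig1, Olig2, Enpp6 and Tmeff2), where 2.64% of all tested genes showed that order. Under truncated SK3 it was 4 of 10 (Mobp, Olig1, Olig2 and Tmeff2; 6.27% of tested genes), and under DN-HCN2 1 of 10 (Adamts4; 3.63%). Without control base replicate 2, all 10 genes separated base from apex in control (5.17% of tested genes), and without truncated SK3 base replicate 3, 8 of 10 did under truncated SK3 (12.4%). The median log2 difference of the 10 genes between base and apex was 8.11 in control, 9.11 under truncated SK3 and 1.90 under DN-HCN2, against 0.00 over all tested genes in each condition. With genes listed at 0 in a group put at their bound, and those at or under the floor in both groups left out, the medians were 7.32, 7.20 and 2.08. These contrasts chose the members, so nothing is read from the counts.

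The size of the difference between base and apex varied from gene to gene. In control, the ratio of group means was 555 for Mog (356 to 922), 535 for Olig1 (260 to 1330), 507 for Enpp6 (233 to 1381), 254 for Opalin (86.9 to 1231, on 3 apical counts) and 27.0 for Tmeff2 (23.7 to 30.8). Olig2 was at least 120-fold higher, with the apical group set at a floor of 3 counts over the group because it held 0. Under truncated SK3, the ratio was 777 for Mobp (556 to 1122) and 676 for Mog (410 to 1209), and Olig1 was at least 1467-fold higher against the same floor. Without truncated SK3 base replicate 1, the ratio was 34.7 for Mobp and 1.79 for Mog. In control, the Mog ratio was 341 without control base replicate 1 and the Enpp6 ratio 247 without control base replicate 4. Under DN-HCN2, it was 4.91 for Mobp (3.62 to 6.84), 5.95 for Adamts4 (4.52 to 7.99) and 1.28 for Mog (0.808 to 2.15), and without DN-HCN2 base replicate 2 that of Mobp was 1.15. For Mobp, Mog and Adamts4 the ratio under DN-HCN2 was the lowest of the 3 conditions, the Adamts4 ratio being 42.2 in control and 74.0 under truncated SK3. Without truncated SK3 base replicate 1 that order was lost for Adamts4, with a ratio of 1.95 under truncated SK3. Whether the differences between base and apex themselves differed between conditions was not tested.

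Across constructs in the base, edgeR's quasi-likelihood test compared libraries of the same region, with Benjamini-Hochberg adjustment over all 14968 genes. The control basal libraries that put the genes on the list form one side of the comparison, so its direction is not independent of the choice. Of the 10 genes, 1 was called lower under DN-HCN2 than in control at a false discovery rate of 0.05, where 1.3% of tested genes were called lower. This was Olig1, at 65.0 ± 50.85 CPM in control base (n = 4) and 0.0529 ± 0.04745 CPM in DN-HCN2 base (n = 3). The fold change on the log2 scale was -9.98 with an SE of 2.08 (edgeR adjusted p = 0.0259), a fitted value that depends on the prior count because DN-HCN2 base held 2 counts. The ratio of group means was 1228 (340 to 10140), and all 4 control libraries were above all 3 DN-HCN2 libraries. The call was lost without control base replicate 4 and without any of the 3 DN-HCN2 base replicates, with adjusted p from 0.00954 to 0.0887 when any library of the 2 groups was left out.

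The other 9 genes were also below control in DN-HCN2 base but did not pass the test. The log2 fold changes from edgeR were -6.97 for Mobp (SE 1.77, adjusted p = 0.0534), -8.76 for Mog (SE 2.47, adjusted p = 0.0727) and -9.42 for Nkx6-2 (SE 3.05, adjusted p = 0.106). Nkx6-2 held no count in DN-HCN2 base and was at least 79.0-fold lower against a floor of 3 counts over the group. Opalin, with 1 count in DN-HCN2 base, had a ratio of control to DN-HCN2 of 610 (110 to 24109). Opalin and the remaining 5 genes had log2 fold changes between -8.57 (Opalin) and -3.14 (Olig2), with adjusted p from 0.13 to 0.419. For each of these 9 genes, control base replicate 2 was no higher than the highest DN-HCN2 library, so that of the 10 genes Olig1 alone was separated, where 9.03% of tested genes had every DN-HCN2 library below every control library. The median log2 fold change of the 10 genes was -5.68 (-5.35 with Nkx6-2 at its bound), against 0.03 over all tested genes, and 8 of 10 had an unadjusted p under 0.05, as had 18.5% of all tested genes.

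DN-HCN2 base replicates 2 and 3 carried macrophage transcripts at 1540 and 1674 CPM over the list, against at most 539 CPM in any other library. Without them, 0 of 10 genes were called and the adjusted p of Olig1 was 0.284 in a group left with 1 library, which the fit assumes to vary like the other groups. Summed Schwann cell transcripts were also lower in DN-HCN2 base, at 5496, 6126 and 7083 CPM, than in control base, at 10012, 8614, 15482 and 10430 CPM, with Pmp22 and Prx among the most abundant. Summed supporting cell genes were higher in 2 of the 3 DN-HCN2 base libraries than in any control base library. Of 12 tested, 3 were called higher (Tectb, Otog and Fgfr3), as were 126 of all 14968 tested genes. The part of these lists in the Olig1 result was not tested.

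Between truncated SK3 and control in the base, 0 of 10 genes were called by edgeR (0 at an unadjusted p under 0.05, 0 by DESeq2 and 0 by limma-voom), where 0.147% of tested genes were. The log2 fold change was 0.64 for Mobp (SE 1.26), 0.54 for Mog (SE 1.53), 0.88 for Olig1 (SE 1.14) and -0.89 for Enpp6 (SE 1.5), each with an edgeR adjusted p of 1. All 10 standard errors were above 1 on the log2 scale, and each group held libraries both rich and poor in these transcripts. The sign of Mobp, Mog, Olig1, Opalin, Tmeff2 and Adamts4 depended on truncated SK3 base replicate 1: without it, Mobp was at -3.85 and Mog at -7.98. Between DN-HCN2 and truncated SK3 in the base, 0 of 10 genes were called by edgeR (7 at an unadjusted p under 0.05, 4 by DESeq2 and 0 by limma-voom), where 0.241% of tested genes were (14.6% at an unadjusted p under 0.05, 3.54% by DESeq2 and 0.14% by limma-voom). Olig1 came closest, with a log2 fold change of -10.86 and an edgeR adjusted p of 0.0541. The truncated SK3 basal libraries, like those of control, took part in the choice of the genes. The direction and the counts of this comparison are therefore not independent of that choice, and nothing is read from them against the shares.

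**Figure D3:**
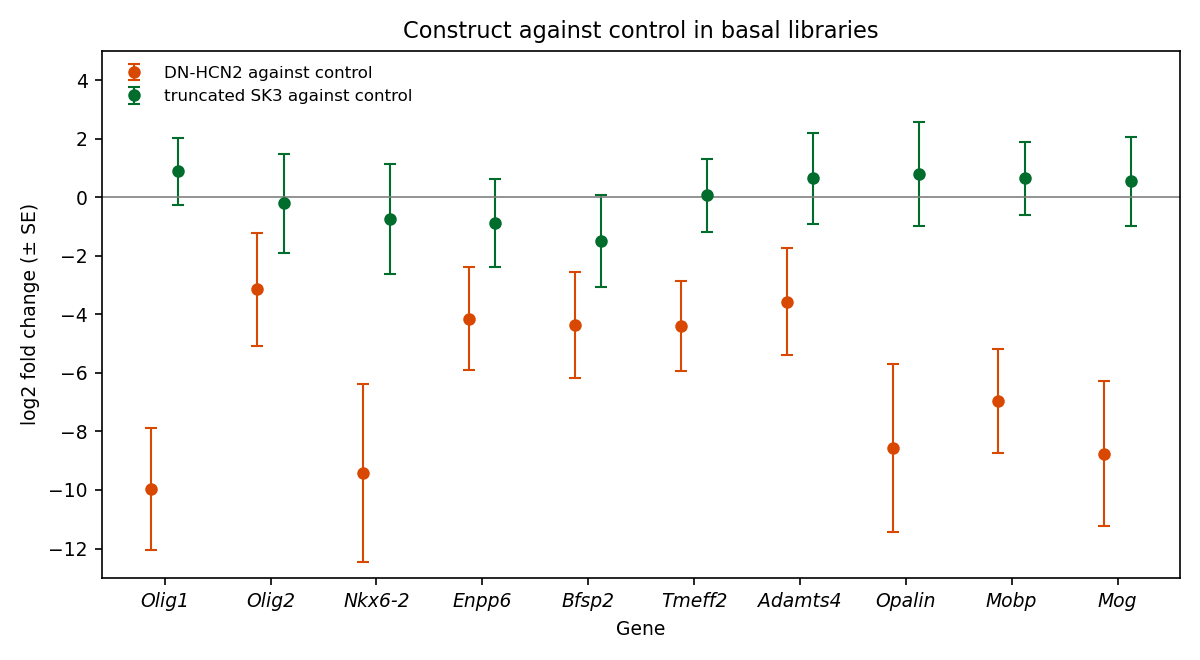
Log2 fold change against control in the base (points) with its standard error (bars) for the 10 genes, for DN-HCN2 and for truncated SK3, from edgeR. All 10 DN-HCN2 values are below 0, Olig1 alone passing the threshold, and the truncated SK3 values lie between -1.51 and 0.88.

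In the apex, no member was called between any pair of conditions by edgeR. DN-HCN2 against control gave 0 of 10 (0 at an unadjusted p under 0.05, 1 by DESeq2, 0 by limma-voom; 0.2% of tested genes called by edgeR and 1.55% by DESeq2), and DN-HCN2 against truncated SK3 gave 0 of 10 (1 unadjusted, 1 by DESeq2, 0 by limma-voom; 0.02% and 0.621%). Truncated SK3 against control gave 0 of 10 (1 unadjusted, 2 by DESeq2, 0 by limma-voom; 0.254% and 1.04%). The gene with the unadjusted p was Tmeff2, whose 3 truncated SK3 libraries were all below the 4 control libraries listed above. Its control mean was 20.1 times the truncated SK3 mean (10.2 to 46.6), with a log2 fold change of -4.23 (SE 1.93, edgeR adjusted p = 0.572). Of all tested genes, 6.77% had every truncated SK3 apical library below every control one. An unadjusted edgeR p under 0.05 was reached by 11.9%, 8.42% and 8.51% of tested genes in the 3 apical comparisons, in the order above.

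Other genes of oligodendrocytes were examined through a list of 33, of which 32 were tested. The list was chosen with earlier results of these data known, so it is not an independent check of the 10 genes. Between base and apex, 31 of 32 had a positive log2 fold change in control, 29 under truncated SK3 and 16 under DN-HCN2. Of all 14968 tested genes, 7559, 7493 and 7526 had one, in that order. The list had medians of 2.67, 2.20 and 0.04, against 0.00 over all tested genes. None was called by edgeR in any condition (18, 16 and 4 at an unadjusted p under 0.05 in control, truncated SK3 and DN-HCN2, 5, 5 and 0 by DESeq2, and 0 in each by limma-voom), where 0%, 0.0134% and 0.214% of all tested genes were called. In that order of conditions, 4.82%, 9.58% and 12.1% of all tested genes had an unadjusted edgeR p under 0.05. DESeq2 called 0.555%, 1.42% and 2.53% of them. The most abundant genes of the list were Trf, Apod and Cldn11. Cldn11, the claudin that forms the radial tight junctions of central myelin, had 0.589 to 86.2 CPM in apical libraries and 2.41 to 1300 CPM in basal ones. Trf, the iron carrier transferrin, and Apod, a lipid carrier, ran from 8.26 to 435 and from 5.26 to 461 CPM already in the apex, and their apical and basal ranges overlapped. Ermn, a cytoskeletal protein of oligodendrocytes named here after its values were seen, had 80.7, 0.0707, 48.85 and 54.5 CPM in control base, 143, 0 and 0.774 CPM in truncated SK3 base and at most 0.184 CPM in DN-HCN2 base.

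The set of libraries, rather than the size of the difference, gave a simple description of the pattern. The 4 libraries with the most Mobp were also the 4 highest for 7 of the other 9 genes, the exceptions being Enpp6 and Olig2. That was so for 16 of 32 other oligodendrocyte genes (50%), for 9 of 20 genes shared by both kinds of myelin (45%) and for 95 of 14968 tested genes (0.635%). It held for 0 of 19 Schwann cell genes, 0 of 19 genes of oligodendrocyte precursors and 0 genes of the 8 lists of other cell types. The measure was chosen after the values were seen and is a count with no test.

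Among genes shared by central and peripheral myelin, Mbp and Cnp were among the most abundant. Mbp, myelin basic protein, had 7674, 4711, 7656 and 7528 CPM in control base, 19031, 5536 and 7876 CPM in truncated SK3 base, and 3386, 3839 and 5958 CPM in DN-HCN2 base. Of 20 tested genes of the list, 4 were called lower under DN-HCN2 than in control in the base (among them Ugt8a, Nfasc and Gjc3). Of 32 other oligodendrocyte genes, 2 were called lower (Hhip and Tmem88b), and of 19 Schwann cell genes 3 (among them Drp2 and Cdh19), where 1.3% of all tested genes were. In DN-HCN2 base, genes of both the shared myelin list and the Schwann cell list were thus among those called lower.

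**Figure D4:**
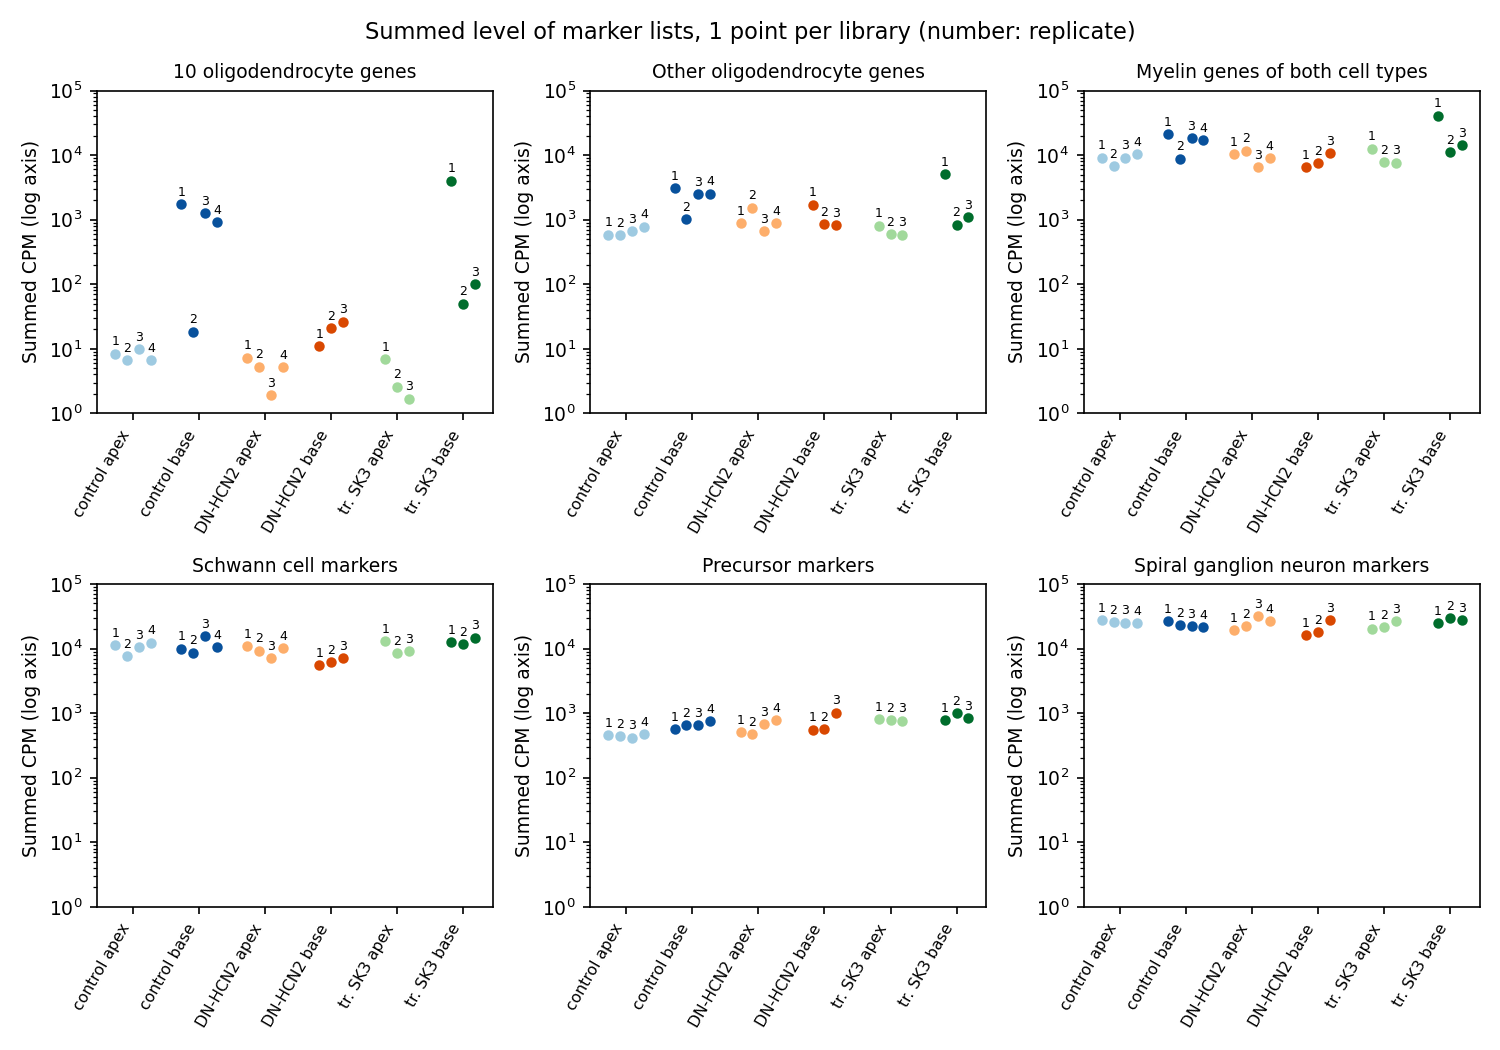
Summed CPM of 6 gene lists (log axis), 1 point per library, by group. The 10 genes span from 1.68 to 4013 CPM, with 4 basal libraries far above the rest, whereas Schwann cell genes lie between 5496 and 15482 CPM in all 21 libraries.

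Schwann cell genes did not separate the 4 libraries. Their sum was 10012, 8614, 15482 and 10430 CPM in control base and 12524, 11721 and 14667 CPM in truncated SK3 base, with 2 libraries above the apical range of 7050 to 13095 CPM and the other 5 inside it. The median log2 difference between base and apex of the 19 tested Schwann cell genes was 0.03 in control, 0.19 under truncated SK3 and -0.33 under DN-HCN2, where 16 of 19 were negative. The summed genes of oligodendrocyte precursors, of which Bcan, Lhfpl3 and Megf11 were the most abundant, had 564 to 744 CPM in control base, 552 to 1013 CPM in DN-HCN2 base and 780 to 1003 CPM in truncated SK3 base. The sum was 419 to 471 CPM in control apex, 470.5 to 780 CPM in DN-HCN2 apex and 768 to 798 CPM in truncated SK3 apex. Base and apex were thus separated for this list in control, by a small margin next to that of the 10 genes, and overlapped in the other conditions. The median log2 difference of the 19 tested precursor genes between base and apex was 0.05 in control, -0.08 under truncated SK3 and 0.37 under DN-HCN2.

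Lists of other cells of the brain and cochlea were read beside these values. Central neuron genes, whose most abundant members were Lmx1a, Atoh7 and Zic2, summed to 8.27 to 10.45 CPM in control base and 1.97 to 4.09 CPM in control apex. The sums did not overlap, but only 5 of the 14 genes had enough counts to be tested. For 0 of these 5 was every control basal library above every control apical one, where 2.64% of all tested genes showed that order. The sum of the central neuron list was 10.4 to 37.9 CPM in DN-HCN2 base, 4.08 to 14.4 CPM in truncated SK3 base, with 4.08 CPM in its replicate 1, and 1.77 to 10.2 CPM in the apex of those conditions. Astrocyte genes, with Aldoc and Slc1a3 among the most abundant, summed to 767 to 1140 CPM in the base and 620 to 1402 CPM in the apex. Summed hair cell genes (Ocm, Otof and Myo7a first) did not exceed 49.4 CPM in the base. Supporting cell genes (Tectb, Fbxo2 and Gjb2 first) summed to 373 to 783 CPM in control and truncated SK3 base and to 2793, 497 and 1860 CPM in DN-HCN2 base, fibroblast genes (Col1a2, Dcn and Lum first) to 431 to 3604 CPM in the base and endothelial genes (Egfl7, Esam and Cldn5 first) to 8.40 to 234 CPM in the base. Macrophage genes (Lyz2 and Csf1r among the most abundant) summed to 77.4 to 118 CPM in control base. None of these lists had its highest sum in truncated SK3 base replicate 1, the library richest in the 10 genes; their part in the levels of those genes was not tested.

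The genes most like the 10 depended on the measure of likeness, taken over 21 libraries with the mean log2 level of the 10 genes. By Spearman's rank correlation these were Pcdh9 (0.878), Ephb1 (0.866), Fez1 (0.862), Phyhipl (0.862), Plcg2 (0.849), Gatm (0.847), Rnf13 (0.822), Rab29 (0.812), Bcar3 (0.810) and Ptprr (0.806), of which 0 were on the oligodendrocyte lists. By Pearson's correlation, added after the data were seen, they were led by Ermn (0.979), Zfp488 (0.959), Rtkn2 (0.959) and Nkx2-2 (0.946), and 6 of 10 were on those lists. Pcdh9, a protocadherin, had 8.75 to 51.0 CPM in apical libraries and 39.9 to 227 CPM in basal ones, a far smaller span than that of Ermn, which had at most 0.139 CPM in the apex. Among the 10 genes themselves, the 45 pairs had Pearson correlations from 0.644 to 0.988 (median 0.857) and Spearman correlations from 0.359 to 0.779 (median 0.58), as a description over libraries of shared groups.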

How the data were processed

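RNA of 21 libraries was measured, and the values are read counts that the authors deposited in 1 table, with gene symbols as lines and libraries as columns. Trimmomatic, HISAT2 and DESeq2 and the builds GRCm38 and mm10 are named, without versions or settings, per the submitters' processing notes. The counter, its annotation and its strand setting are not given in the sources used here. The counts as deposited are whole numbers, and 3555 of 21878 lines are at 0 throughout.

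Libraries were grouped by virus and region as titled. After filterByExpr, 14968 genes were scaled by TMM and fitted with the robust quasi-likelihood test of edgeR 4.0.16 (R 4.3.3), with 1 mean per group over all 21 libraries; adjusted p-values follow Benjamini-Hochberg over all tested genes at a false discovery rate of 0.05. Each construct was compared with control and with the other in each region. DESeq2 1.42.0, limma-voom (limma 3.58.1), no filter, other scaling, fits of the groups compared only, a replicate block and left-out libraries were alternatives. CPM are counts over the TMM-scaled total. Standard errors come from the F statistic. Floors are 3 counts over a group. Intervals are exact at 95%, and those on ratios of group means use the counts of the lower group only. Gene positions and exon lengths are from GENCODE M21 (GRCm38).

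The 10 genes and all gene lists were chosen with earlier results of these data known. Named are all 10 genes, of the related lists the called genes or the 3 most abundant, of the other cell types the 3 most abundant, and the 10 genes most alike by rank correlation; exceptions are marked as chosen after their values were seen, and some genes that the rule names are not reported here. The genes most alike were ranked on log2(CPM + 0.5). Same-numbered libraries did not deviate together: of 29 such pairs, 6 had a correlation over 0.1, so numbers were not treated as pairs.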

Additional observations from a re-analysis of the deposited data

Results flagged for a closer look

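In the groups of 4 libraries, 27 groups of values of the 10 genes were examined for a library standing apart from the other 3, and 7 were marked, all in the apex and most on a handful of counts. A chance rate of about 1 in 20 would hold for continuous values. A single count beside 3 libraries at 0 is always marked, so the 7 cannot be set against that rate. Mobp in control apex replicate 1 was at 2.55 CPM (33 counts) against at most 0.926 CPM in the other 3. Enpp6 in DN-HCN2 apex replicate 2 was at 2.65 CPM (39 counts) against at most 0.392 CPM. Mog in the same library was at 0.544 CPM (8 counts). Enpp6 in control apex replicate 4 was at 0.2085 CPM (3 counts). Olig2 in DN-HCN2 apex replicate 4 was at 0.0747 CPM and Nkx6-2 in DN-HCN2 apex replicate 1 at 0.0653 CPM, each on 1 count. Opalin in control apex replicate 2 was at 0, with 1 count in each of the other 3.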

How the results depend on the processing

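Leaving out 1 basal library moves many values, and several groups hold 0 to 3 counts of Opalin, Olig2 or Nkx6-2, so that low levels of these are not resolved at this depth. Of 10 genes, the number called between DN-HCN2 and control in the base was 1, but 6 with DESeq2 (which called 7.36% of tested genes), 0 with limma-voom, 0 with only the 2 groups fitted and 0 without the macrophage-rich replicates 2 and 3 of DN-HCN2 base; leaving out 1 library gave 0 to 2 (2 without control base replicate 2). Olig1 kept its call in 7 of 14 alternatives (adjusted p from 2.39e-06 to 0.709). DESeq2 called 1 gene between DN-HCN2 and control in the apex, 2 between truncated SK3 and control in the apex, and 1 in the apex and 4 in the base between the constructs, where edgeR called 0; leaving out 1 library gave 0 to 1 for the last. DESeq2 also called 5 other oligodendrocyte genes between base and apex in control and 5 under truncated SK3. Of all tested genes it called 0.555% and 1.42% there. Leaving out 1 library, the genes with every basal above every apical library numbered 5 to 10 in control, 1 to 3 under DN-HCN2 and 4 to 8 under truncated SK3. Over all tested genes, 320 were called between DN-HCN2 and control in the base, and 103 to 1101 over the alternatives. Likeness by Pearson's in place of Spearman's correlation put 6 rather than 0 list genes among the 10 most alike.

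With replicate number as a block, the number of members called was the same in all 6 comparisons, and in truncated SK3 against control in the base the log2 fold change turned to -0.28 for Mobp, -0.49 for Mog, 0.70 for Olig2, -0.49 for Tmeff2 and -0.94 for Adamts4. In that comparison limma-voom gave -1.03 for Mog, 0.37 for Olig2, 0.13 for Bfsp2 and -0.60 for Tmeff2. Leaving out 1 library there gave -3.85 to 1.20 for Mobp, -7.98 to 1.23 for Mog, -7.19 to 1.45 for Opalin, -2.43 to 1.43 for Olig1, -3.77 to 0.60 for Tmeff2 and -4.59 to 1.22 for Adamts4, each lowest without truncated SK3 base replicate 1, and -1.91 to 0.13 for Enpp6, -0.68 to 1.20 for Olig2 and -9.44 to 0.06 for Nkx6-2. Between DN-HCN2 and truncated SK3 in the base it gave -4.79 to 1.01 for Adamts4 and -9.27 to 0.00 for Nkx6-2, each highest without truncated SK3 base replicate 1. None of these reversed values was called; the cause was not tested.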

Other observations

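Gpr17, a receptor of cells committed to become oligodendrocytes that was picked after its values were seen, joined Olig2 and Enpp6 in truncated SK3 base replicate 3. It had 11.5, 0.0707, 18.7 and 18.3 CPM in control base replicates 1 to 4, 29.5, 0 and 19.7 CPM in truncated SK3 base replicates 1 to 3 and at most 0.0917 CPM in DN-HCN2 base. In truncated SK3 base replicate 3, Gpr17 was thus at the level of the 4 libraries rich in Mobp while Mog was at 0.580 CPM and Opalin at 0. Gpr17 is 1 gene of the precursor list, and the sum of the list did not follow it. Bcan and Lhfpl3 carried most of that sum, with means of 284 and 265 CPM of 662 CPM over all libraries. The sum therefore says little about the less abundant genes. The summed list had 842 CPM in truncated SK3 base replicate 3, between replicates 1 and 2 (780 and 1003 CPM). Under truncated SK3, 9 of its 19 tested genes were higher in base than in apex and 10 lower.

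Gfap, an intermediate filament of astrocytes and some Schwann cells, was also picked after its values were seen and followed another order. It had 18.4, 3.46, 16.6 and 19.8 CPM in control base, 140, 226 and 54.3 CPM in truncated SK3 base and at most 0.463 CPM in DN-HCN2 base, with at most 2.30 CPM in the apex. Truncated SK3 base replicate 2 was the highest library for Gfap, with 17.8 CPM of Mobp.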
